A study of Homo sapiens with 6 samples.

Results

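A set of 9 genes of MHC class I antigen presentation, immune inhibition and immune-cell adhesion was followed after silencing of NEK2 in MDA-MB-231 cells: HLA-B, HLA-C, HLA-E, B2M, TAP1, TAP2, TAPBP, CD274 and ICAM1. A row of the gene table was taken as a member where its symbol, split where several genes share 1 row, held one of these names. All 9 genes had a row among the 74852 rows of the table, and all 9 were among the 18717 rows that averaged 10 or more normalized counts and entered the test. MDA-MB-231 is a triple-negative breast cancer (TNBC) cell line, grown here in medium with serum and with no genetic change added. Cells were transfected 2 times with a pool of non-targeting control siRNAs (si-CTRL) or of siRNAs against NEK2 (si-NEK2), a mitotic kinase, in 3 libraries per group. By the sample records they were harvested 24 h after the second transfection, and the methods of the study give a later time after transfection. PolyA-enriched RNA was sequenced, and the table gives normalized counts, that is the reads on a gene divided by a size factor of the library.

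MHC class I molecules show peptides from inside the cell to CD8 T cells. A heavy chain, such as the products of HLA-B, HLA-C and HLA-E, pairs with the invariant light chain encoded by B2M, and the TAP1 and TAP2 proteins form the transporter that brings peptides into the endoplasmic reticulum, where tapasin, the product of TAPBP, helps to load them. CD274 encodes PD-L1, a surface ligand that inhibits T cells through PD-1, and ICAM1 encodes an adhesion molecule that binds leukocyte integrins, and both genes are known to respond to interferon gamma and NF-kB, as do several class I genes.

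ICAM1 and CD274 fell after NEK2 silencing, ICAM1 to 35.1% and CD274 to 60.6% of the si-CTRL mean. HLA-B and TAP2 were lower by a smaller margin, to 68.0% and 73.3%, whereas HLA-C, HLA-E, TAP1 and TAPBP had overlapping values in both groups and B2M was 12.5% higher. A gene was counted as regulated at a limma p of at most 0.05 together with a fold change of at least 1.5. By this rule 2 of the 9 genes were lower, against 14.3% of all genes tested, and 0 of the 9 were higher, against 8.23% of all genes tested. At an adjusted p of at most 0.05 alone, 4 of 9 differed (ICAM1, CD274, TAP2 and HLA-B), against 43.1% of all genes. The 3 si-NEK2 libraries did not overlap the 3 si-CTRL libraries in 5 of 9 (these 4 and B2M), against 55% of all genes, so the shares for the last 2 criteria lay close to those of the whole table. The median log2 fold change was −0.11 over the 9 genes and 0.01 over all genes tested, and it was 0.00 over the 7 class I and peptide-loading genes, of which 0 were regulated.

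The silenced gene, NEK2, stood at 3702, 3323 and 3290 normalized counts in si-CTRL replicates 1, 2 and 3 and at 284, 362 and 388 in si-NEK2 replicates 1, 2 and 3, so that 10.0% of the si-CTRL mean was left. The libraries held between 52625492 and 87454509 reads. The library si-CTRL replicate 1 was the shallowest and stood apart from the other replicates of its group (chi-square per gene of 75.8 and 79.6 against them, where the other 2 differed by 12.7), so values without it are given below where a result rests on it. VIM, CD44, AXL, ZEB1 and CAV1, markers of mesenchymal TNBC cells, had means of at least 4023. Of them CD44 and ZEB1 were regulated and lower in si-NEK2, at 58.2% and 56.3% of the si-CTRL mean (limma adjusted p = 0.00332 and 0.000340), and CAV1 was regulated and higher, at 161% (limma adjusted p = 5.46e-05). Of 9 luminal and receptor markers 4 (ESR1, PGR, EPCAM and CDH1) had means below 10. The other 5 were expressed, with group means from 321 for GATA3 to 24840 for KRT18. None of these 5 passed both thresholds, although KRT8, KRT19 and ERBB2 were higher in si-NEK2 (log2 fold change 0.37, 0.55 and 0.53, limma adjusted p = 0.00244, 0.000878 and 0.00744). Of 10 leukocyte markers 7 had a mean below 10, with MS4A1 and NKG7 at 0 in all 6 libraries, and CD68 shares its row with EIF4A1 and other genes. The sum of the 9 with a row of their own was 106.5 to 140.7 in si-CTRL and 35.2 to 54.8 in si-NEK2. Of these CSF1R fell from 99.5 ± 17.4 to 21.4 ± 7.04 normalized counts (SD, n = 3, log2 fold change −2.19, limma adjusted p = 0.000345), while PTPRC, the pan-leukocyte marker CD45, reached at most 25. The 4 endothelial markers summed to 49.4 to 76.2 in si-CTRL and 28.9 to 39.5 in si-NEK2. All libraries came from the MDA-MB-231 line, so these markers are given as expression values and not as shares of leukocytes or endothelial cells. The source of their low counts was not tested. In bulk RNA, fewer expressing cells and less RNA per cell cannot be told apart. The labels do not say whether replicates were separate cultures, so that p-values measure the spread between these libraries, which may be technical.

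The promoters of the genes are shown because several of them carry letters that interferon-activated factors or NF-kB are known to bind. RefSeq windows of 300 bases, from 250 before to 50 after the start site, matched 8 of the 9 genes, all but HLA-E (GRCh38.p14). Each was searched on both strands for 5 motifs: the core of the interferon-stimulated response element, ISRE (GAAA, any 2 letters and GAAA again, in 3.57% of all 35116 windows), the gamma-activated sequence, GAS (TTCNNNGAA, 7.66%), the kB consensus (11.3%), the kB-type letters known from ICAM1 (GGAAATTCC, 0.461%), and the CCAAT letters of the class I Y box (CCAATCA, 6.95%). Matches are in capitals in the windows below, given 5′ to 3′ on the strand of the gene, where overlapping matches form 1 run. A match is a description of letters and not a site of binding. The window of ICAM1 (chr19:10270870-10271169, plus strand) held the ICAM1 kB letters and 1 GAS, and that of CD274 (chr9:5450292-5450591, plus strand) held 2 overlapping ISRE cores and 1 GAS.
ICAM1: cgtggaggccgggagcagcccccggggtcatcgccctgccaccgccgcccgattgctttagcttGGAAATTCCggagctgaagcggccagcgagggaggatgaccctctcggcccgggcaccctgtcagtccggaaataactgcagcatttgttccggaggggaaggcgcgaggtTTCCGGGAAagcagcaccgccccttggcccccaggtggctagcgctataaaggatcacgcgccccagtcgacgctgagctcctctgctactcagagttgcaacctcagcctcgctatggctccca
CD274: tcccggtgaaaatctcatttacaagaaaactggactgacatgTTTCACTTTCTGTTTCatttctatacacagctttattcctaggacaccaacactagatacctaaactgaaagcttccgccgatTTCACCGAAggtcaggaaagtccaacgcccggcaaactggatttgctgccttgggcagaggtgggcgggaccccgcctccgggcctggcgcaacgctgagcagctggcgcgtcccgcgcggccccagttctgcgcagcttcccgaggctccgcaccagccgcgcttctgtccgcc
The windows of the heavy-chain genes HLA-B (chr6:31357130-31357429, minus strand) and HLA-C (chr6:31272043-31272342, minus strand) were identical at 269 of 304 aligned positions (88.5%). Each held the Y box letters 1 time and the kB consensus, which matched at 2 overlapping positions in HLA-B and at 1 in HLA-C.
HLA-B: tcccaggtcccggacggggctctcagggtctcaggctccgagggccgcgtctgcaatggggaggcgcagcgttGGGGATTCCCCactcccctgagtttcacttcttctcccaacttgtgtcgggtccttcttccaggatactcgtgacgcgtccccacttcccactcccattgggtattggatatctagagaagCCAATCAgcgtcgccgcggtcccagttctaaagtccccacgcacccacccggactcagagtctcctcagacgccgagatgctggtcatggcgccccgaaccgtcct
HLA-C: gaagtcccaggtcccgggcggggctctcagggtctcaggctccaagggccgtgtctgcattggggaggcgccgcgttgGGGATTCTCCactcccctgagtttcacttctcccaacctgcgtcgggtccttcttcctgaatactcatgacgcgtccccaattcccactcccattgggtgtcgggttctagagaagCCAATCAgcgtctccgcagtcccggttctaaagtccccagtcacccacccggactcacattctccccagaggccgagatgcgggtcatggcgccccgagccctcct
The window of B2M (chr15:44711267-44711566, plus strand) held 2 overlapping ISRE cores, 1 kB consensus and the Y box letters.
B2M: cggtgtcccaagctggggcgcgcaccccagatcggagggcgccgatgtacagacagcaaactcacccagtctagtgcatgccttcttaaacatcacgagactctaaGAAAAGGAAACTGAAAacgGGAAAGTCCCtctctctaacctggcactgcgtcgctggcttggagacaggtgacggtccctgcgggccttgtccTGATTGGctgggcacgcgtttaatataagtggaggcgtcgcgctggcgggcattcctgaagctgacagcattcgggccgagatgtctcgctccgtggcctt
For the transporter, TAP2 (chr6:32838690-32838989, minus strand) held 1 ISRE core. The window of TAPBP, not shown, held 2 overlapping ISRE cores and 1 kB consensus. TAP1 had 2 windows, of which the second, not shown, held 1 GAS. The TAP1 window shown (chr6:32853655-32853954, minus strand) held 2 overlapping ISRE cores and 2 kB consensus matches, and shared 13 bases with the window of PSMB9, an immunoproteasome subunit gene that runs the other way.
TAP2: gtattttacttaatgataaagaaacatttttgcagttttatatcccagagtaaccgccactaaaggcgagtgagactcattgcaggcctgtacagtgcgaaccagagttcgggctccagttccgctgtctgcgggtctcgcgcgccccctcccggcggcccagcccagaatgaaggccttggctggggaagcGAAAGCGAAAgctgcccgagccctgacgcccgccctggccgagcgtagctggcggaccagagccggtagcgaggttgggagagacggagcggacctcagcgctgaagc
TAP1: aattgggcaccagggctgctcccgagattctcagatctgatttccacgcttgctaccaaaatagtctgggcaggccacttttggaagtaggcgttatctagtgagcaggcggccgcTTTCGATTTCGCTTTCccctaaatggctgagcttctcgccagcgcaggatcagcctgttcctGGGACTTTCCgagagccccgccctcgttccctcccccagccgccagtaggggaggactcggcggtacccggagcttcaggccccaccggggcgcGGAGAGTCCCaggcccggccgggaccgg

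Among the heavy chains, HLA-B presents peptides to CD8 T cells. Its row (chr6:31321644-31325022, hg19, which also names the microRNA MIR6891) had 3265, 2176 and 2767 normalized counts in the si-CTRL replicates 1, 2 and 3 and 2099, 1791 and 1689 in the si-NEK2 replicates 1, 2 and 3. Every si-NEK2 library lay below every si-CTRL library, but the gap was narrow: the highest si-NEK2 library (replicate 1) was just under the lowest si-CTRL library (replicate 2). The mean went from 2736 ± 545 to 1860 ± 213 (SD, n = 3), a log2 fold change of −0.54 (SE 0.15, limma adjusted p = 0.0153), which fell short of the fold threshold. HLA-B passed that threshold when si-CTRL replicate 2 (−0.70) or si-NEK2 replicate 1 (−0.63) was left out, with upper quartile scaling (−0.61) and with equal library totals (−0.67), and its limma adjusted p rose to 0.0588 without si-NEK2 replicate 2, to 0.0550 without si-NEK2 replicate 3 and to 0.0514 in limma without a trend. Without si-CTRL replicate 1 its log2 fold change was −0.41.

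HLA-C, a heavy chain also read by the killer-cell immunoglobulin-like receptors of natural killer cells, was measured at chr6:31236526-31239913 (hg19). It stood at 16459, 17877 and 20436 normalized counts in the si-CTRL replicates and at 20803, 19316 and 15051 in the si-NEK2 replicates. The si-NEK2 libraries held both the highest and the lowest value, so the groups overlapped. The log2 fold change was 0.00 (SE 0.13, limma adjusted p = 0.988), with a 95% interval of 0.822-fold to 1.22-fold, and its sign depended on the scaling and on which library was left out. HLA-E, whose product shows leader peptides of other class I chains to the receptor NKG2A, was measured at chr6:30457183-30461981 (hg19). It had 9916, 8513 and 9391 in si-CTRL and 9828, 9641 and 9687 in si-NEK2, with all 3 si-NEK2 libraries inside the si-CTRL range. Its log2 fold change was 0.07 (SE 0.07, limma adjusted p = 0.455) and its 95% interval ran from 0.940-fold to 1.17-fold, and the sign turned with equal totals and with quantile normalization. The intervals of HLA-C and HLA-E both excluded a change of 1.5-fold. The heavy-chain genes are close relatives of each other, the cell line's own alleles can differ from the hg19 ones, and the handling of reads that match several of them is not given in the sources used here, so the division of reads between them is uncertain.

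Within each library HLA-B was set against its relatives, a choice made with the values known. The ratio of HLA-B to HLA-C was 19.8%, 12.2% and 13.5% in the si-CTRL replicates and 10.1%, 9.27% and 11.2% in the si-NEK2 replicates, and that of HLA-B to HLA-E was 32.9%, 25.6% and 29.5% against 21.4%, 18.6% and 17.4%. Both ratios were lower in every si-NEK2 library than in any si-CTRL library (exact permutation test, two-sided, p = 0.1 each, the smallest that 3 against 3 libraries allow). A ratio within a library does not depend on its size factor.

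B2M, the light chain of all class I molecules, was measured at chr15:45003685-45010357 (hg19). It stood at 133631, 123846 and 145206 normalized counts in si-CTRL and at 145898, 151891 and 155260 in si-NEK2. All si-NEK2 libraries lay above all si-CTRL libraries, although si-NEK2 replicate 1 exceeded si-CTRL replicate 3 by a margin far smaller than the spread within either group. The mean was 134228 ± 10692 in si-CTRL and 151016 ± 4742 in si-NEK2 (SD, n = 3), a log2 fold change of 0.17 (SE 0.08, limma adjusted p = 0.0963). The 95% interval reached 1.27-fold, below the 1.5-fold threshold. The value was as low as 0.04 with equal library totals, and its adjusted p was at most 0.05 in 1 of 17 alternatives, without si-CTRL replicate 3 (limma adjusted p = 0.0480, log2 fold change 0.23).

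The transporter subunits differed. TAP1 (chr6:32812987-32821784, hg19) had 4843, 5332 and 5668 normalized counts in si-CTRL and 5217, 5197 and 5427 in si-NEK2. The si-NEK2 libraries fell inside the si-CTRL range, and both group means were 5281. Its log2 fold change was 0.00 (SE 0.07, limma adjusted p = 0.981), with a 95% interval of 0.892-fold to 1.13-fold, and the sign depended on the setting. TAP2 is on a row that also names HLA-DOB (chr6:32780549-32806600, hg19), so reads of that class II gene would be counted with it. The row had 6534, 5759 and 6321 in si-CTRL and 4365, 4453 and 4827 in si-NEK2, and the groups were well apart. The mean fell by 26.7%, from 6205 ± 400 to 4548 ± 245 (SD, n = 3), a log2 fold change of −0.45 (SE 0.07, limma adjusted p = 0.00150). This difference passed an adjusted p of 0.05 in all 17 alternatives and reached 1.5-fold in 0 of them. The ratio of TAP2 to TAP1 was 135%, 108% and 112% in the si-CTRL replicates and 83.7%, 85.7% and 88.9% in the si-NEK2 replicates (exact permutation test, two-sided, p = 0.1, the smallest possible here). No other row of the table overlaps TAP2, whereas TAP1 overlaps PSMB8-AS1, whose log2 fold change was −0.11.

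TAPBP, which encodes tapasin, was measured at chr6:33267474-33282164 (hg19). It had 12892, 10008 and 9787 normalized counts in si-CTRL and 10942, 10144 and 9083 in si-NEK2. The groups overlapped, and the highest value was that of si-CTRL replicate 1. The log2 fold change was −0.11 (SE 0.11, limma adjusted p = 0.483), with a 95% interval of 0.774-fold to 1.11-fold, and it was 0.02 without si-CTRL replicate 1.

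**Figure D1:**
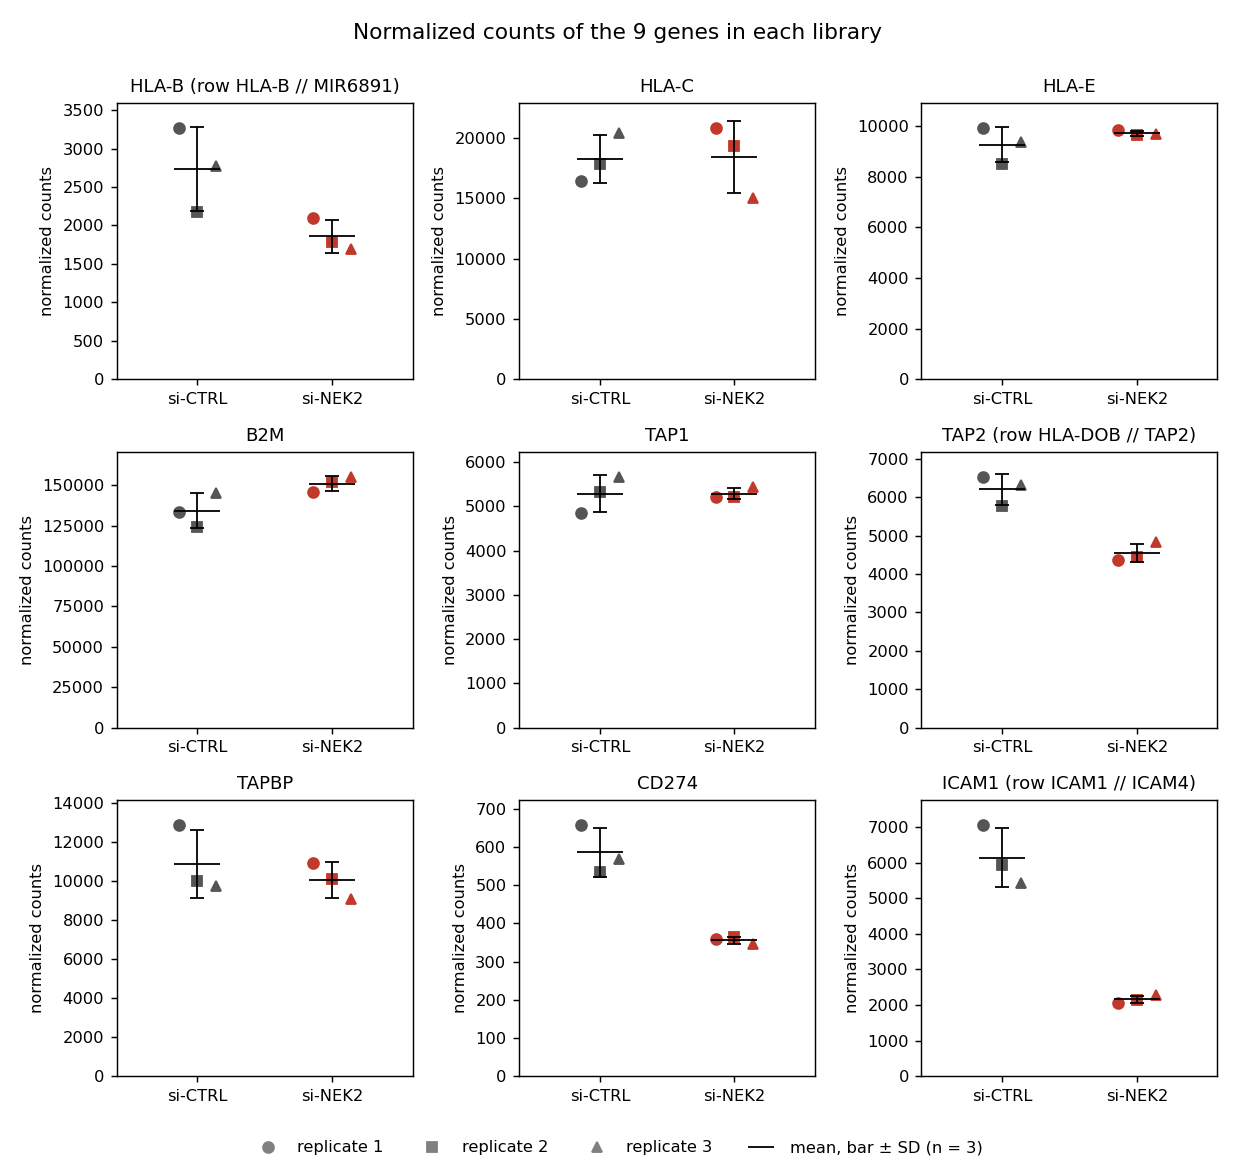
Normalized counts (y axis, linear, from 0) of the 9 genes in the 3 si-CTRL libraries (grey) and the 3 si-NEK2 libraries (red), with replicate number by marker shape and the mean ± SD in black. ICAM1, CD274 and TAP2 show well-separated groups, HLA-B and B2M groups that are apart by a narrow gap, and the other 4 genes overlapping groups.

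CD274 encodes PD-L1. At chr9:5450499-5470567 (hg19) it had 657, 534 and 568 normalized counts in the si-CTRL replicates 1, 2 and 3 and 358, 363 and 345 in the si-NEK2 replicates 1, 2 and 3. The lowest si-CTRL library was well above the highest si-NEK2 library, and the si-NEK2 libraries lay close together. The mean fell by 39.4%, from 586 ± 63.9 to 355 ± 9.69 (SD, n = 3), a log2 fold change of −0.71 (SE 0.11, limma adjusted p = 0.000821). The 95% interval, from 0.516-fold to 0.719-fold, included 1.5-fold lower. CD274 was regulated in 16 of 17 alternatives. With quantile normalization its log2 fold change was −0.58, just under 1.5-fold, and without si-CTRL replicate 1 it was −0.63. The row lies within that of PLGRKT, which had a log2 fold change of 0.34, in the opposite direction. PDCD1LG2, which encodes PD-L2, the other ligand of PD-1, had 1635, 1038 and 1180 in si-CTRL and 979, 1066 and 1221 in si-NEK2, so its groups overlapped (log2 fold change −0.22, limma adjusted p = 0.312). CMTM6, which encodes a protein that keeps PD-L1 at the cell surface, rose, from 22504, 30496 and 32272 to 46324, 47995 and 44562 (log2 fold change 0.72, SE 0.12, limma adjusted p = 0.00179). It was 0.56 without si-CTRL replicate 1 and 0.56 with quantile normalization, below 1.5-fold in both. CMTM4, a relative of CMTM6 with the same known role and named with its value known, rose as well (0.76), and was 0.52 without si-CTRL replicate 1. The transcript of PD-L1 and those of its stabilising partners thus moved in opposite directions, and protein was not analysed here.

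ICAM1 had the largest difference of the 9 genes. It had 7059, 5928 and 5439 normalized counts in the si-CTRL replicates and 2064, 2138 and 2271 in the si-NEK2 replicates. Each si-NEK2 library was far below the lowest si-CTRL library. The mean fell by 64.9%, from 6142 ± 831 to 2158 ± 105 (SD, n = 3), a log2 fold change of −1.50 (SE 0.10, limma adjusted p = 1.63e-05), with a 95% interval of 0.302-fold to 0.413-fold. The call held in all 17 alternatives, between −1.63 (equal library totals) and −1.40 (without si-CTRL replicate 1). The row names ICAM1 and ICAM4 and spans 69.9 kb (chr19:10329394-10399260, hg19), so the 2 genes cannot be told apart. It also spans the rows of MRPL4, with a log2 fold change of 0.06, and of S1PR2, with −0.53, and S1PR2 held a mean of 667 normalized counts over the 6 libraries. How reads were divided between overlapping rows, and whether strand was used, is not given in the sources used here.

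Set against each other within a library, CD274 was 9.58% ± 0.754 of ICAM1 in si-CTRL and 16.5% ± 1.17 in si-NEK2 (SD, n = 3). The ratio was higher in each si-NEK2 library than in any si-CTRL library (exact permutation test, two-sided, p = 0.1, the smallest possible here). Against B2M within the same library, CD274 went from 0.438% ± 0.0509 to 0.236% ± 0.0123 and ICAM1 from 4.61% ± 0.785 to 1.43% ± 0.0301 (SD, n = 3). CD274 and ICAM1 were lower and B2M higher in every si-NEK2 library than in any si-CTRL library. Neither ratio to B2M could therefore overlap between groups, and this adds no separate result.

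**Figure D2:**
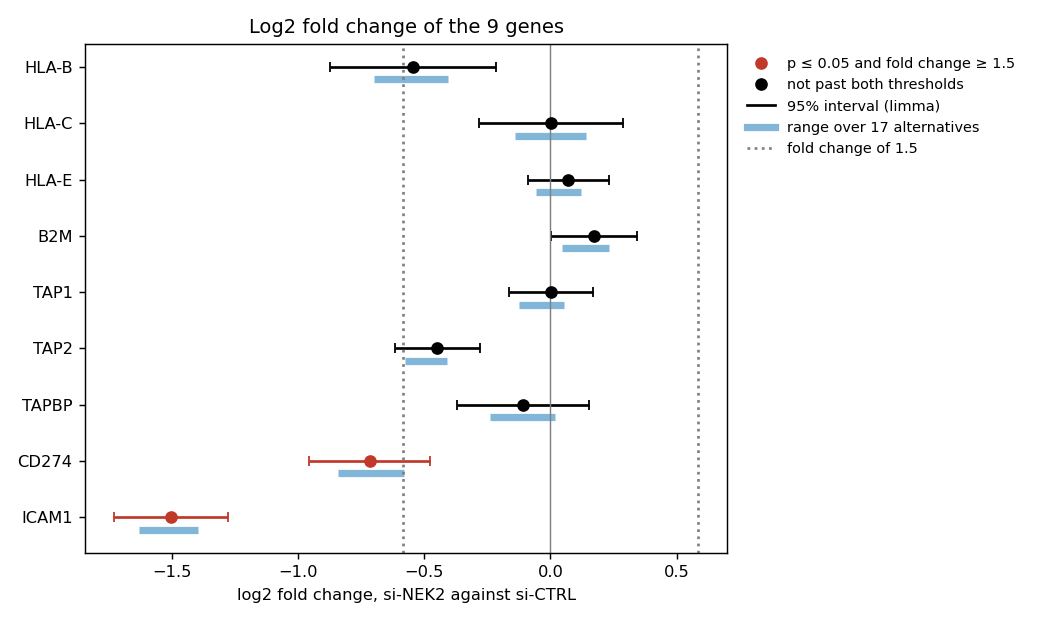
Log2 fold change of each gene (x axis, si-NEK2 against si-CTRL) with its 95% limma interval (thin bar), its range over 17 alternatives (thick blue bar) and dotted lines at a fold change of 1.5. ICAM1 (−1.50) lies wholly beyond the line, CD274 (−0.71) straddles it, and the point estimates of the 7 class I and loading genes lie inside it, with the intervals of HLA-B and TAP2 crossing it.

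**Figure D3:**
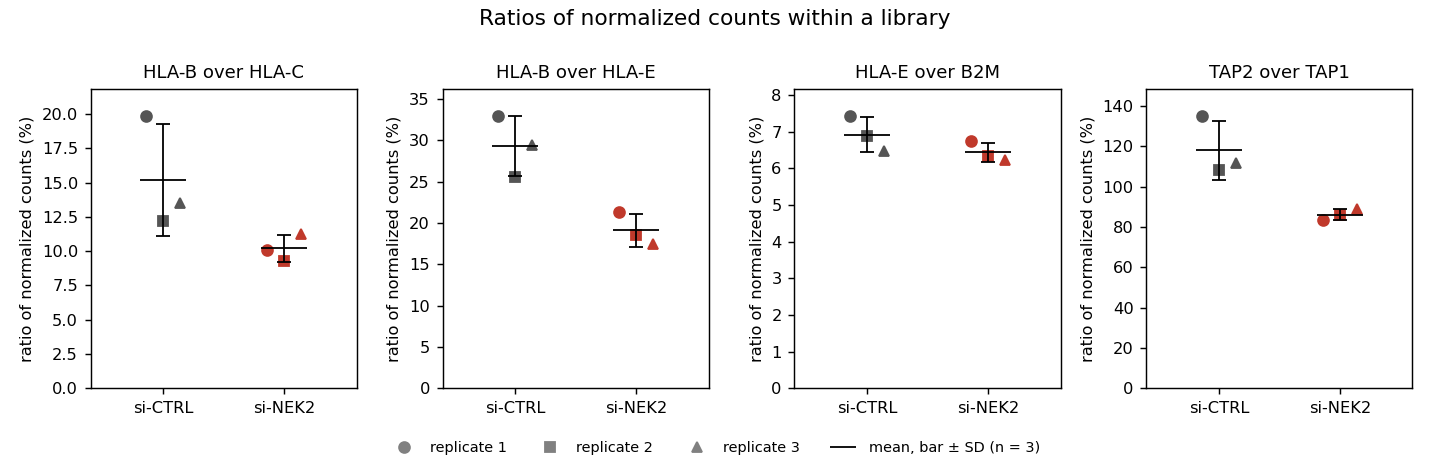
Ratio of normalized counts within a library (y axis, percent, from 0) for 4 pairs of genes, with replicate number by marker shape and the mean ± SD in black. HLA-B over HLA-C, HLA-B over HLA-E and TAP2 over TAP1 are lower in all 3 si-NEK2 libraries, and HLA-E over B2M overlaps.

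The genes that surround the 9 in these pathways were counted in 8 lists of 104 genes, of which 82 were tested, 20 had a mean below 10 and 2 share a row with TAP2 or ICAM1. By both thresholds 8 were higher (9.76%) and 18 lower (22%), against 8.23% and 14.3% of all genes tested. At an adjusted p of at most 0.05 alone, 46 differed (56.1%), against 43.1% of all genes. Each list below is counted by both thresholds, and with so few genes per list its share is a description beside the same 8.23% and 14.3%. The 82 genes had a median log2 fold change of −0.08, against 0.01 over all genes. With equal library totals the median over all genes moved to −0.11, the split of the related genes became 5 higher and 24 lower, and the lower share of all regulated genes went from 63.4% to 78.7%.

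Of 6 other class I heavy chains and class I-like genes, 0 were regulated and the median was 0.40. Of 13 genes of peptide supply and loading, 1 was regulated, UGGT1, a glucosyltransferase of glycoprotein quality control that also acts on class I molecules. UGGT1 was lower (log2 fold change −0.60, limma adjusted p = 0.000218), and was −0.57 and thus under 1.5-fold without si-CTRL replicate 1 or si-NEK2 replicate 1. PSMB9, which shares its promoter region with TAP1, was not regulated (−0.06, limma adjusted p = 0.779), like TAP1 itself.

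Of 20 genes of interferon signalling and class I or II transactivation, 0 were regulated upwards and 2 downwards (10.0%). An adjusted p of 0.05 alone was passed by 10, in both directions, against 43.1% of all genes tested. Some of these 10 are named with their values known. The interferon gamma receptor chain IFNGR1 was higher (log2 fold change 0.43, limma adjusted p = 0.00463). Its partner IFNGR2 was lower (−0.52, limma adjusted p = 0.00294). Likewise, JAK1 was higher (0.38, limma adjusted p = 0.00273) and STAT3 lower (−0.48, limma adjusted p = 0.000852). SOCS3, a feedback inhibitor of cytokine signalling, went from 2002, 1951 and 2046 normalized counts to 1130, 911 and 1110 (log2 fold change −0.93, limma adjusted p = 0.000130). CIITA, the class II transactivator, went from 39.4 ± 9.23 to 4.26 ± 0.648 normalized counts (SD, n = 3, −2.92, limma adjusted p = 0.000205) and is named with its value known, as its mean lay under 50. The transactivator of class I genes, NLRC5, had 666, 907 and 838 in si-CTRL and 899, 845 and 1005 in si-NEK2 (0.20, limma adjusted p = 0.243). IRF1 had 1170, 1008 and 926 in si-CTRL and 856, 922 and 813 in si-NEK2, and its groups did not overlap, though by a margin of a few normalized counts (−0.26, limma adjusted p = 0.0782). IRF1 and NLRC5, both known regulators of class I genes, thus did not pass the test.

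Among 5 NF-kB subunit genes 2 were regulated, both lower. Named with their values known, RELA (log2 fold change −0.34), REL (0.19) and NFKB1 (0.02) were not regulated (limma adjusted p = 0.146, 0.128 and 0.815). RELB went from 1677, 1613 and 1627 normalized counts to 767, 740 and 719 (log2 fold change −1.14, limma adjusted p = 1.43e-05) and NFKB2 fell with −0.63 (limma adjusted p = 8.53e-05), both of the noncanonical arm. All 4 class II genes tested were lower at an adjusted p of at most 0.05, which 43.1% of all genes tested passed in either direction. Their median was −0.65, and 7 other class II genes had a mean below 10. Of the 4, 3 passed both thresholds, including HLA-DPA1 (−0.60, limma adjusted p = 0.00432) and HLA-DMA (−0.69, limma adjusted p = 0.0119). HLA-DPA1 was under 1.5-fold without si-CTRL replicate 3 (−0.52), si-NEK2 replicate 1 (−0.57) or si-NEK2 replicate 2 (−0.56) and with quantile normalization (−0.44), and so was HLA-DMA with the last (−0.48). HLA-DPB1 missed only the fold threshold (−0.52, limma adjusted p = 0.00587). The third to pass was CD74, the invariant chain, named with its value known (−1.77, limma adjusted p = 0.0356, from 20.3 ± 9.33 to 5.69 ± 3.75 normalized counts, SD, n = 3).

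The list of checkpoint ligands and costimulators also holds the PD-L1 partners CMTM6 and CMTM4 and the enzymes encoded by NT5E and IDO1. Of its 16 tested genes, which leave out CD274, 5 were regulated upwards (31.2%) and 4 downwards (25.0%), with a median of −0.06. The upward share rested in part on si-CTRL replicate 1. Without that library VSIR (0.55), CMTM6 (0.56) and CMTM4 (0.52) fell under 1.5-fold. NT5E, which encodes CD73, the enzyme that makes adenosine from AMP, had 12266, 7848 and 10390 normalized counts in si-CTRL and 2506, 2615 and 2772 in si-NEK2 (log2 fold change −1.93, limma adjusted p = 2.75e-05). ICOSLG, the ligand of the costimulator ICOS, fell by 1.20 on the log2 scale and IDO1, an enzyme that breaks down tryptophan, fell by 1.03. TNFSF9, the ligand of 4-1BB on T cells, rose to more than 2 times its si-CTRL mean, from 1254, 1710 and 1831 to 3820, 3891 and 2889 (limma adjusted p = 0.000603).

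Of 9 adhesion molecules and integrins beside ICAM1, 2 were regulated upwards (22.2%) and 4 downwards (44.4%), with a median of −0.22. Of those downwards, ALCAM (−0.62, limma adjusted p = 0.000303) was −0.55 and under 1.5-fold without si-CTRL replicate 1. ITGB2, the shared beta chain of the leukocyte integrins that bind ICAM1, had 130, 104 and 174 normalized counts in si-CTRL and 81.8, 56.0 and 62.9 in si-NEK2 (log2 fold change −0.996, limma adjusted p = 0.00743). ITGAM, the alpha chain of one of them, was −0.71 (limma adjusted p = 0.0429) and lost its call when si-CTRL replicate 1 (−0.48) or si-NEK2 replicate 2 (−0.66) was left out, and with quantile normalization (−0.51). The junctional molecule JAM2 fell by 0.95 on the log2 scale and F11R, which encodes the related JAM-A and shares its row with TSTD1, rose by 0.76. ICAM3, a relative of ICAM1, had a log2 fold change of 0.06 with overlapping groups.

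**Figure D4:**
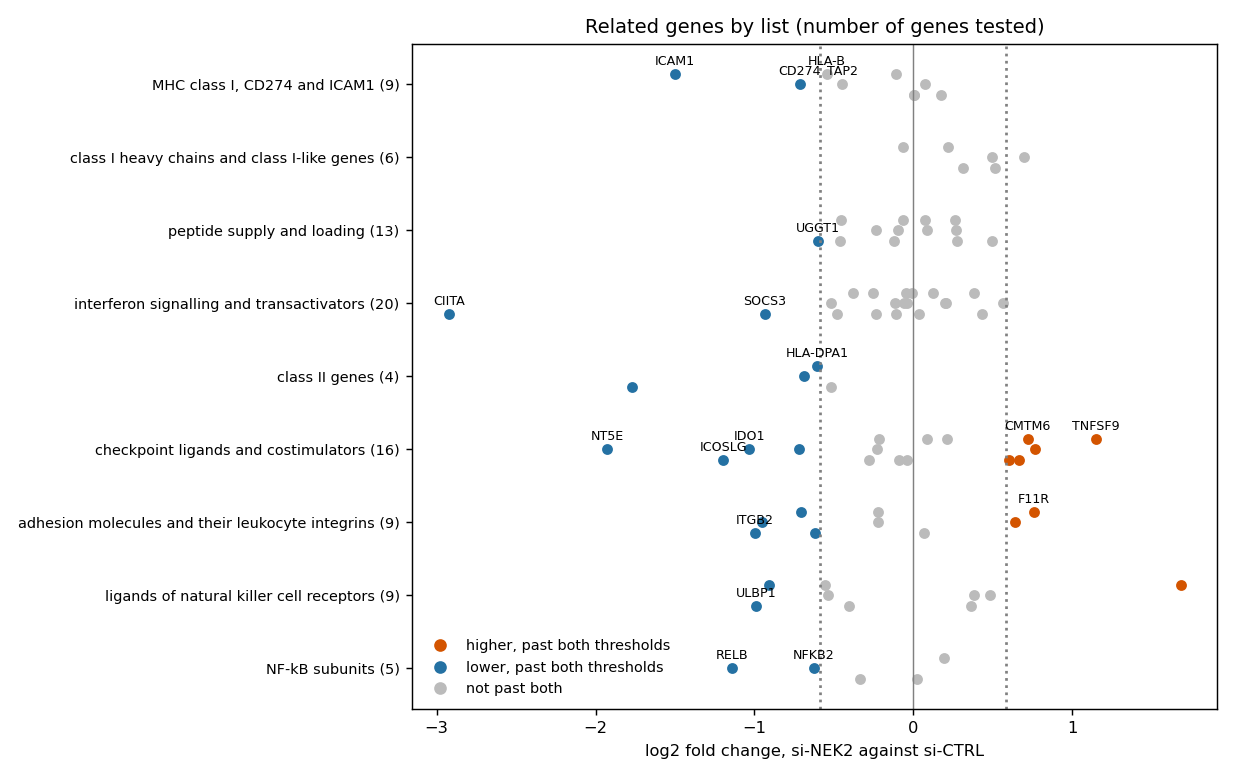
Log2 fold change (x axis, si-NEK2 against si-CTRL) of each tested gene in the 9 genes (top) and in 8 lists of related genes, with the number tested in brackets, regulated genes in colour and dotted lines at a fold change of 1.5. The 2 regulated genes of the top line and all regulated genes of the class II and NF-kB lists lie to the left, while checkpoint and adhesion genes lie on both sides.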

How the data were processed

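The authors deposited a normalized signal per gene and library, in which read counts were scaled by DESeq2 size factors, with FAST DB annotation and hg19 coordinates, from TruSeq Stranded mRNA libraries. The submitters' processing notes name STAR 2.4.0, SAMtools, Picard, FastQC and DESeq2. The counter and its use of strand are not given in the sources used here. Deposited values came out as whole reads (tolerance 0.1 read) in 100% of cases, with 1 read worth 0.818 to 1.25, which sets the precision of low values.

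Genes with a mean of at least 10 were fitted with limma 3.58.1 (R 4.3.3, intensity trend) on log2(value + 1), si-NEK2 against si-CTRL. This scale understates changes of low genes. Adjusted p-values (Benjamini-Hochberg) cover all 18717 genes. Regulated genes passed the limma p threshold of 0.05 and a 1.5-fold difference, as in the study. Alternatives included edgeR 4.0.16, which called 4205 genes on the recovered reads (limma called 4213), and DESeq2 1.42.0. The fitting code was tested on simulated data.

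The 9 genes, the lists and the ratios were chosen with earlier results of these data known. Named from each list were regulated genes with a mean of at least 50, at most the 4 with the largest change, plus NEK2, IRF1, NLRC5, PDCD1LG2 and CMTM6. Some genes of this rule are not reported here. ICAM3, PSMB9, HLA-DPB1, VSIR, ALCAM, ULBP2, ULBP3, single cell type markers and genes so marked were added with values known. For likeness of pattern, the 5 genes with the highest Pearson r over the 6 libraries (mean of at least 50) were named.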

Additional observations from a re-analysis of the deposited data

How the results depend on the processing

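The fits of the 9 genes and of the related genes were repeated under 17 alternatives, and the counts also under 2 other call rules. Regulated genes among the 9 numbered 1 with quantile normalization and 1 at a fold change of at least 2 (ICAM1 in both), and 2 or 3 in all other settings, 2 to 3 with 1 library left out, with HLA-B as the third. The related genes numbered 8 at a fold change of at least 2 in place of 26, and 21 to 31 with 1 library left out. With the replicate number as a replicate block, 2 of the 9 and 26 related genes were regulated, and 4084 of all genes against 4213. Deviations of same-numbered libraries from their group means had r = −0.09, 0.05 and −0.15, so little shared deviation was seen. The labels do not say whether these libraries share more than a number. The sign turned for HLA-C with upper quartile scaling (−0.063), equal totals (−0.13), quantile normalization (−0.14), DESeq2 (−0.0010) and across left-out libraries (−0.093 to 0.14), for HLA-E with equal totals (−0.058) and quantile normalization (−0.053), for TAP1 with upper quartile scaling (−0.063), equal totals (−0.13), quantile normalization (−0.080), edgeR (−0.012), DESeq2 (−0.012) and across left-out libraries (−0.058 to 0.055), and for TAPBP across left-out libraries (−0.18 to 0.019). The cause was not tested. Groups of 3 libraries limit the exact tests to p = 0.1, and rows shared by several genes limit HLA-B, TAP2 and ICAM1.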

Other observations

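Ligands of natural killer cell receptors, which include relatives of class I molecules, numbered 9 tested genes, of which 1 was higher and 2 lower, with a median log2 fold change of −0.41. ULBP1, a ligand of the activating receptor NKG2D, had 250, 231 and 280 normalized counts in si-CTRL and 105, 122 and 160 in si-NEK2, groups that did not overlap (log2 fold change −0.99, limma adjusted p = 0.00191). NCR3LG1, which encodes B7-H6, a ligand of NKp30, fell as well (−0.91, limma adjusted p = 0.000687). RAET1L, another NKG2D ligand, named with its value known, rose from 20.0, 7.75 and 13.3 to 44.2, 44.3 and 41.6 normalized counts (limma adjusted p = 0.00417). MICA and MICB, the class I-like NKG2D ligands, did not reach 1.5-fold (0.36 and 0.48, limma adjusted p = 0.0103 and 0.00238) and were higher in 3 of 3 si-NEK2 libraries. ULBP2 and ULBP3 of the same list also missed 1.5-fold, but were lower in 3 of 3 si-NEK2 libraries (−0.54 and −0.55, limma adjusted p = 0.00703 and 0.00380). The groups did not overlap in any of the 9 tested genes, against 55% of all genes tested. The direction was mixed, with MICA, MICB, RAET1L and RAET1G higher and the other genes lower. RAET1E (−0.41) and RAET1G (0.38) did not pass an adjusted p of 0.05 (limma adjusted p = 0.0981 and 0.0785).

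The genes whose log2 values followed a member most closely over the 6 libraries were given for 3 of the 9 genes, as a description, among 12093 genes compared. The 6 libraries share 1 contrast, so a high r is common for genes that differ between the groups. For CD274 they were CERS4 (Pearson r = 0.9997), MPV17, CAMK2N1, WIPF1 and PCOLCE, and 2030 genes had r of at least 0.9. For ICAM1 they were XPO5 (0.9995), SH3RF3, ACLY, SHOC2 and TUB, with 2106 genes at that level. For B2M they were IFIT1 (0.9956), SC5D, CYB5D1, TCAIM and LIPT2, with 121 genes at that level.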
